A study of Mus musculus with 24 samples.

Results

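Chemokine ligands are the secreted or membrane-bound proteins that direct where white blood cells go. They were taken here as every mouse gene whose symbol is Ccl, Cxcl, Cx3cl or Xcl followed by a number, with or without a last letter, pseudogenes left out. This rule gave 37 protein-coding genes in the GENCODE annotation of GRCm38, and Cxcl11 fell outside it because it is annotated there as a polymorphic pseudogene. Of these, 32 had a row in at least 1 of the 4 deposited tables, among 30699 genes in all: 31 in the white fat tables and 27 in the brown fat tables. Ccl19, Ccl20, Ccl21a, Ccl21b and Ccl27b were not analysed here. Chromosome 11 holds 12 of the 37, among them Ccl6 (chr11:83587882-83593087) beside Ccl9 (chr11:83572919-83578636), and chromosome 5 holds 10. Chromosome 4 holds 5, with Ccl27a at chr4:41769467-41774247, and chromosome 8 holds 4, with Cx3cl1 at chr8:94772009-94782427. Chromosome 13 holds 2, Ccl28 (chr13:119623819-119654359) and Cxcl14 (chr13:56288643-56296551).

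The libraries came from the white fat (white adipose tissue, WAT) and the brown fat (brown adipose tissue, BAT) of C57BL/6 mice. Each mouse had been given 2 subcutaneous injections at 25 mg/kg of an antisense oligonucleotide with locked nucleic acid bases, a chemistry that holds an oligonucleotide tightly to its target. The oligonucleotide was antimiR-224, antimiR-452 or the control scramblemiR, which has a scrambled sequence, so that control mice had also received an oligonucleotide of this chemistry. There were 4 libraries for each of the 3 treatments in each tissue, made from poly(A) RNA of whole tissue, 24 in all. The fat depot, the sex and age of the mice and the time to tissue removal were not given in the sources used here. Nothing in the labels states that the libraries of a group came from separate animals, so the p-values measure the spread between these libraries. The design asks what inhibition of each microRNA does to the transcripts of each fat, and for the ligands whether the fats differ.

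Chemokines bind G protein-coupled receptors on leukocytes, and the cells follow the gradient. CC ligands mostly draw monocytes, macrophages, eosinophils, dendritic cells and T cells, while CXC ligands draw neutrophils, lymphocytes or progenitor cells. Several, such as Cxcl9 and Cxcl10, are classic targets of interferon, and many others of NF-kB. In fat they are made by resident macrophages, by stromal and mesothelial cells and by the adipocytes themselves, and they are best known there for drawing monocytes into obese tissue. A microRNA acts chiefly through its seed, bases 2 to 8, which pairs with sites in the 3′ UTRs of transcripts, so that an inhibitor would be predicted to raise the level of direct targets.

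The mature sequences of the inhibited microRNAs, from RefSeq on GRCm38.p6, are shown with the seed in capitals, because any direct site in a ligand transcript has to match them. mmu-miR-224-5p lies at chrX:72261085-72261105 and mmu-miR-452-5p at chrX:72262271-72262292, both on the minus strand and inside the gene Gabre.
mmu-miR-224-5p: uAAGUCACuagugguuccguu
mmu-miR-452-5p: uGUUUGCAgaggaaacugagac
The tables count genes, and the levels of the mature microRNAs themselves were not analysed here. The match to the miR-224-5p seed, GTGACTT, was found in the 3′ UTR of 1 of 31 ligands, Ccl25, against 13.3% of the 18335 3′ UTRs searched. The match to the miR-452-5p seed, TGCAAAC, was found in 2 of 31, Ccl28 and Cxcl14, against 9.8% of all. The ligand UTRs were shorter, with a median of 645 bases against 995 for all genes. The matches are printed with their flanks on the transcript strand, the seed match in capitals, and they begin at base 246 of 505 in Ccl25, base 487 of 3293 in Ccl28 and base 663 of 1149 in Cxcl14.
Ccl25, site for miR-224-5p: ctttctgaagtGTGACTTgagtaaattgc
Ccl28, site for miR-452-5p: atttgaaaagtTGCAAACaacatgaccta
Cxcl14, site for miR-452-5p: ggtctttttctTGCAAACtgagggtttct
A match is a description of letters and does not show that the site is used.

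The deposited tables hold group means, from which the reads of each library were recovered. Levels below are normalized reads, that is, reads divided by the library's size factor, and libraries are numbered 1 to 4 within a group from the highest size factor to the lowest. Control libraries held 22175430 to 27935908 reads in WAT and 16960694 to 20255777 in BAT. The tissue labels fitted their markers: 7 brown adipocyte genes summed to 1155 to 1800 normalized reads in WAT controls and 209256 to 338766 in BAT controls, and Ucp1, the uncoupling protein of brown fat, had at most 180 in WAT controls and at least 43938 in BAT controls. Some libraries stood apart within their groups. In WAT, 10 genes of simple epithelium summed to 7430 and 10064 in antimiR-224 libraries 1 and 2 and to 5176, 7443 and 6236 in antimiR-452 libraries 1 to 3, against 513 to 1527 in the scramblemiR libraries. Spermatid genes summed to 9390 and 2607 in WAT antimiR-224 libraries 3 and 4 and to 32843 in scramblemiR library 2, and interferon-inducible genes to 31431 in antimiR-224 library 4, against 6197 to 8170 in the scramblemiR libraries. In BAT, skeletal muscle genes summed to 1219265 and 1363764 in scramblemiR libraries 1 and 2 but to 1359 and 1795 in libraries 3 and 4. Those scramblemiR sums are on a scale shared by the control libraries of both tissues. On each table's own scale, the authors' deposited means of these genes summed to 120557 in BAT antimiR-224, against 485160 under scramblemiR. They summed to 732538 in BAT antimiR-452, against 487753 under scramblemiR.

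In control fat the ligands formed a steep order. The scramblemiR libraries were put on a joint scale and the reads divided by exon length in kilobases, which allows levels of different genes to be set side by side. In WAT the order began with Ccl6, Ccl11, Cxcl12, Ccl9, Ccl8, Cxcl9, Cxcl13 and Cxcl16, and in BAT with Cxcl12, Ccl11, Cxcl14, Ccl6, Cxcl9, Ccl9, Ccl8 and Ccl27a. Both orders depend on the exon length used, which was 8.18 kilobases for Cxcl12 and 1.79 for Ccl6. Before the division Cxcl12 averaged 3793 normalized reads in WAT and Ccl6 2042. The ligands together came to 4005 normalized reads per kilobase in WAT and 1465 in BAT, and the first 3 of each order held 57.2% of that sum in WAT and 57.0% in BAT.

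Ccl6, a mouse CC chemokine that binds Ccr1, had 909, 1135, 1666 and 840 reads per kilobase in WAT libraries 1 to 4, against 268, 108, 183 and 119 in BAT. Its neighbour on chromosome 11 and close relative Ccl9, also a mouse ligand of Ccr1, had 338, 403, 611 and 374 in WAT and 97.9, 65.6, 72.7 and 62.6 in BAT. Every WAT library lay above every BAT library for both genes. Ccl11 (eotaxin, which draws eosinophils through Ccr3) had 672, 613, 956 and 521 reads per kilobase in WAT, against 292, 349, 329 and 301 in BAT. Cxcl12, the ligand of Cxcr4 that holds progenitors in their niches, had 338, 680, 496 and 342 in WAT and 234, 288, 592 and 264 in BAT. Cxcl12 overlapped between the fats and Ccl11 did not. Ccl8, a monocyte-attracting ligand, spread widely within each tissue, with 204, 684, 41.0 and 498 in WAT and 85.1, 10, 95.0 and 28.9 in BAT. Cxcl13, which draws B cells through Cxcr5, had 40.9, 533, 135 and 11.8 reads per kilobase in WAT, against 69.1, 21.1, 11.2 and 36.0 in BAT. The WAT and BAT libraries overlapped for Cxcl13, and the WAT libraries alone spread from 11.8 to 533. Cxcl9, an interferon-induced ligand of Cxcr3 on T cells, had 255, 266, 193 and 264 in WAT and 71.6, 104, 138 and 63.2 in BAT, with no overlap. Cxcl16, a membrane-bound ligand of Cxcr6 that also takes up oxidised lipoproteins, had 81.8, 106, 70.1 and 91.0 in WAT and 19.7, 11.9, 52.5 and 12.7 in BAT, again with no overlap.

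Cxcl14, a ligand whose receptor is not settled, reported to be released by brown adipocytes among other cells, ran the other way, with 37.2, 33.3, 28.4 and 40.9 reads per kilobase in WAT, against 186, 163, 182 and 164 in BAT. Ccl27a, a ligand of Ccr10 best known from skin, had 25.0, 36.2, 27.7 and 38.2 in WAT and 43.4, 54.9, 56.5 and 37.3 in BAT. The Ccl27a groups overlapped by a single pair of values. Ccl27a has a near-identical copy, Ccl27b, and its exons overlap those of Il11ra1 on the opposite strand, so its count is uncertain where reads were shared. The order ended with members near 0: Ccl1 and Cxcl17 had no read in the WAT control libraries and Cxcl15 none in the BAT control libraries, while Cxcl3, Cxcl5 and Ccl26 were below 1 read per kilobase on average in WAT.

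**Figure D1:**
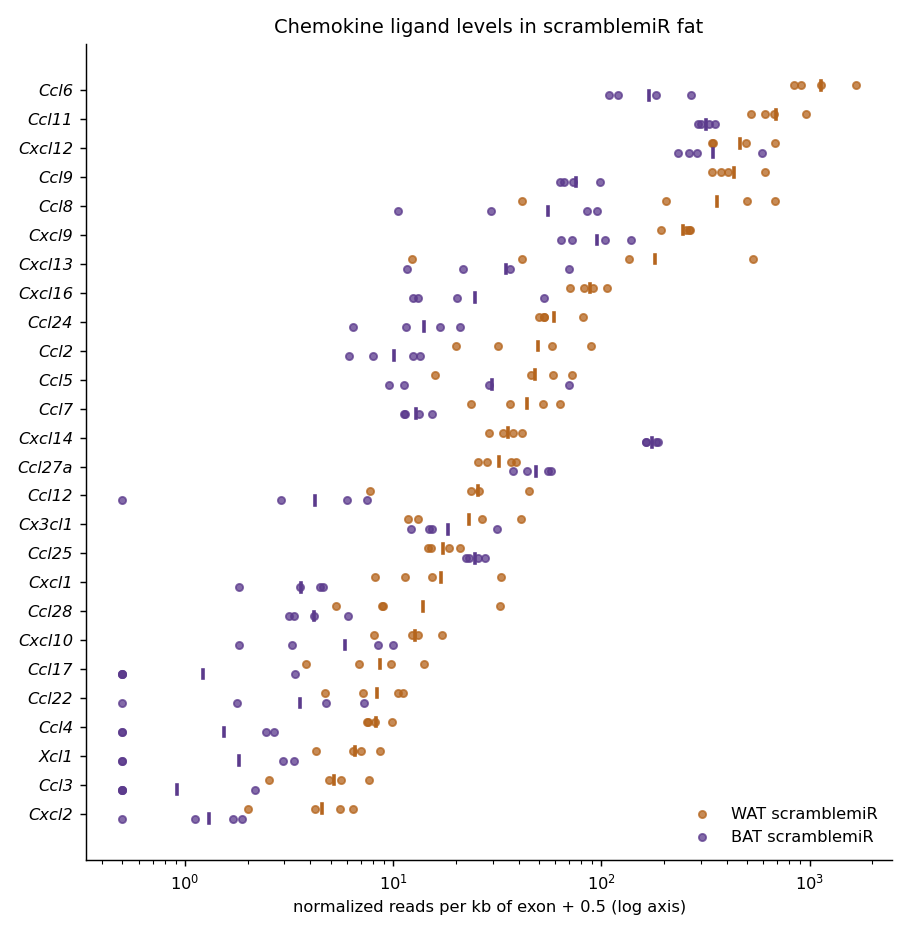
Level of chemokine ligands in control fat, in normalized reads per kilobase of exon on a log axis, with each point a scramblemiR library of WAT or BAT on the joint scale. Ccl6 leads in WAT, where it averages 1138, and Cxcl12 in BAT, where it averages 344; Cxcl14 is the abundant member whose BAT points all lie above its WAT points.

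Between the control tissues, 11 of 20 ligands tested passed an adjusted p of 0.05 in limma, 9 higher in WAT and 2 lower. Over all 16424 genes tested 43.1% passed, 22.6% higher in WAT and 20.5% lower, so the fats differed widely. The ligands had a median log2 difference of 1.47, with 17 of 20 above 0 against 52.3% of all genes, beside a median of 0.05 over all genes, which upper-quartile scaling moved to 0.16. Groups did not overlap for 9 ligands higher in WAT and 2 lower, beside 21.7% and 20.3% of all genes. In whole tissue, fewer cells of a type and less RNA per cell cannot be told apart. The tests below used normalized reads on the joint scale, not divided by length, and log2 differences of log2(normalized reads + 1), WAT minus BAT.

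The ligands higher in WAT included Ccl6 and Ccl9. Ccl6 averaged 2042 ± 672 normalized reads in WAT and 304 ± 133 in BAT (SD, n = 4 each), a log2 difference of 2.79 ± 0.32 (SE; limma adjusted p = 0.000155). Ccl9 averaged 1314 ± 373 in WAT and 227 ± 48.8 in BAT, a difference of 2.51 ± 0.22 (adjusted p = 3.56e-05). The ratio of Ccl6 to Ccl9 reads stayed in a narrow band, 1.32 to 1.66 across WAT control libraries and 0.968 to 1.62 across BAT control libraries. Ccl2, the main monocyte attractant through Ccr2, averaged 56.1 ± 34.9 in WAT and 10.9 ± 4.02 in BAT (difference 2.12 ± 0.51, adjusted p = 0.0085), and Ccl7, which shares that receptor, 34.8 ± 13.9 in WAT and 9.83 ± 1.53 in BAT (1.64 ± 0.41, adjusted p = 0.0102). The eotaxins were both higher in WAT: Ccl24 averaged 76.4 ± 19.5 in WAT and 17.4 ± 8.22 in BAT (2.17 ± 0.40, adjusted p = 0.00204) and Ccl11 747 ± 203 in WAT and 343 ± 28.4 in BAT (1.09 ± 0.19, adjusted p = 0.00144). Among CXC ligands, Cxcl9 (1.43 ± 0.25, adjusted p = 0.00139), Cxcl16 (2.10 ± 0.43, adjusted p = 0.00351) and the neutrophil attractant Cxcl1 (2.11 ± 0.57, adjusted p = 0.0147) were higher in WAT. The BAT means of Cxcl1, 5.82, and Ccl7, 9.83, were under the minimum mean of 10 for testing. Both ligands entered this test only through their WAT reads, and their calls carry that selection. The Ccl2 and Ccl7 calls were lost when the spread was estimated over all 24 libraries, with adjusted p of 0.07 and 0.145, and the Cxcl1 call when the muscle-rich BAT libraries were left out, with 1.88 and an adjusted p of 0.0573.

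Lower in WAT was Cxcl14, with 63.9 ± 9.74 normalized reads in WAT and 317 ± 21.7 in BAT, a log2 difference of −2.30 ± 0.18 that is 4.94-fold (limma adjusted p = 2.32e-05). Ccl25, a ligand of Ccr9 known from thymus and gut, averaged 125 ± 21.9 in WAT and 179 ± 17.4 in BAT, a difference of −0.52 ± 0.19 (adjusted p = 0.0455). The Ccl25 call was lost in 7 of 8 fits that left out a library, for example at −0.46 and an adjusted p of 0.0918 without WAT library 2, and its exons overlap those of Elavl1 on the other strand. Ccl27a, at −0.59 ± 0.24, did not pass (adjusted p = 0.0708). Ccl8, with 182 ± 148 in WAT and 28 ± 21.3 in BAT, had a wide difference, 2.48 ± 0.97, that did not pass (adjusted p = 0.0673). Without WAT library 3, which held the lowest WAT level, it passed at 3.30 and an adjusted p of 0.012. Cxcl12, Cxcl13, Ccl5 and Cx3cl1 had intervals that spanned 0: Cxcl12 0.47 (95% interval −0.26 to 1.2), Cxcl13 1.45 (−1.07 to 3.97), Ccl5 0.94 (−0.60 to 2.47) and Cx3cl1 0.24 (−0.78 to 1.26).

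The promoter of Cxcl14, the ligand with the lowest p of this comparison, is shown because it held a match to both interferon-response motifs searched. The 250 bases before its start site lie at chr13:56296552-56296801 on the minus strand of GRCm38.p6, as RefSeq gives it, and are printed in the direction of transcription. The capitals mark a GAS motif (TTCNNNGAA, which binds STAT dimers) that begins 191 bases before the start and an ISRE core (the interferon-stimulated response element, searched as 2 copies of GAAA with 2 bases between them) that begins 172 bases before it.
Cxcl14: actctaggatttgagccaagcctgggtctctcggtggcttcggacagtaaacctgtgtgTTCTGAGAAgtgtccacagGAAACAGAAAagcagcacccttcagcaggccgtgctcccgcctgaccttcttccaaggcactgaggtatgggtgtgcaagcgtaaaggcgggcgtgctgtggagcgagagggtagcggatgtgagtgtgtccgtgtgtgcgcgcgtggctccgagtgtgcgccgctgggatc
Both strands of 300-base windows, 250 before and 50 after the start, were searched. The ISRE core was in 3 of 33 windows of 27 ligand genes (9.09%, in Ccl19, Cxcl10 and Cxcl14), against 3.44% of 32851 windows. The GAS motif was in 2 of 33 (6.06%, in Ccl17 and Cxcl14), against 8.3% of all, and a loose NF-kB motif (GGG and CC with 5 bases between them) in 18 of 33 (54.5%), against 50.8% of all.

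The receptors of several of these ligands differed in the same direction. Of 19 chemokine receptors listed, 11 were tested between the control tissues, and 6 were higher in WAT and 1 lower. Ccr1, the receptor of Ccl6 and Ccl9, averaged 110 normalized reads in WAT and 12.7 in BAT (3.07, limma adjusted p = 0.000422). Ccr2, the receptor of Ccl2 and Ccl7, averaged 660 in WAT and 132 in BAT (2.63, adjusted p = 0.00614), and Cxcr6, the receptor of Cxcl16, 31.4 in WAT and 5.66 in BAT (2.35, adjusted p = 0.00447). Cxcr4 and Cxcr5 were also higher in WAT. Ccr10, the receptor of Ccl27a and Ccl28, was lower in WAT, with 6.52 ± 5.07 in WAT and 37.9 ± 20.5 in BAT (−2.50, adjusted p = 0.0121). Among 6 atypical receptors, which bind chemokines without G protein signalling, Ackr3, the scavenger of Cxcl12, averaged 913 in WAT and 3528 in BAT (−1.80, adjusted p = 0.00417), while Ackr4 averaged 66.0 in WAT and 3.56 in BAT (4.17, adjusted p = 0.00201) and Ackr1 95.3 in WAT and 37.4 in BAT (1.40, adjusted p = 0.0223). Ccr10 in WAT and Cxcr6 and Ackr4 in BAT were under the minimum mean of 10 for testing. These receptors entered the test only through their reads in the other tissue, and their p-values carry that selection. The processing enzymes and other ligands had 9 of 13 tested genes higher in WAT and 2 lower, receptor signalling genes 8 of 19 higher and 2 lower, interferon-inducible genes 7 of 22 higher and none lower, and NF-kB-inducible genes 8 of 14 higher and 1 lower. Over all genes tested 22.6% were higher in WAT and 20.5% lower, 43.1% in either direction. Counted in either direction, the interferon genes lay below that share and the receptor signalling genes somewhat above it. Counted upward alone, both lay above 22.6%.

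Some lists of cell markers differed along with the ligands, and others overlapped between the tissues. Macrophage genes were higher in WAT for 14 of 15 tested, and summed to 17832 to 22677 in WAT and 3569 to 7163 in BAT. B cell genes were higher for 4 of 8, with sums of 320, 18955, 272 and 128 in WAT libraries and 28.1 to 78.5 in BAT. All 10 mesothelial genes tested were higher in WAT, and 5 of 11 muscle genes were lower in WAT. Brown adipocyte genes were lower in WAT for 7 of 7. The shares over all genes tested were 22.6% higher in WAT and 20.5% lower. Sums overlapped for dendritic cell genes, at 823 to 1319 in WAT and 710 to 1323 in BAT, with 4 of 8 genes higher in WAT. Sums also overlapped for endothelial genes, at 18425 to 29577 in WAT and 13322 to 36272 in BAT, with 0 of 8 higher. Mast cell sums and T and natural killer cell sums overlapped as well. The part of these cell types in the ligand differences was not tested. With the muscle-rich BAT libraries 1 and 2 left out, 9 of 20 ligands passed, among 5874 of 16341 genes, and with the sperm-lineage-rich WAT library 2 left out, 10 of 20 did, among 6432 of 15786 genes.

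In WAT no ligand passed the adjusted threshold against scramblemiR for either inhibitor. For antimiR-224, 0 of 18 ligands tested passed, as did 0% of the 15518 genes tested, while 2 ligands and 931 genes (6%) had an unadjusted limma p under 0.05. Both ligands had the higher mean under antimiR-224, as did 3.25% of all genes, no ligand separated the groups upward (1.74% of all genes did), and the authors' deposited table called 1 gene (0.00343%), no ligand, at an adjusted p under 0.05. For antimiR-452, 0 of 20 ligands and 0% of 15547 genes passed, 4 ligands and 725 genes (4.66%) had an unadjusted p under 0.05, all 4 ligands and 3.84% of all genes upward, and the authors' deposited table called none. Ccl17, among these 4, reached the minimum mean only through its antimiR-452 reads. The ligand median was 0.23 for each inhibitor, beside medians of 0.03 and −0.02 over all genes. The antimiR-224 and antimiR-452 comparisons of a tissue share their 4 scramblemiR libraries, so similar values in them are not independent. Values below are given for antimiR-224, antimiR-452 and scramblemiR libraries in turn. The scramblemiR values are those of the antimiR-224 table, from which the antimiR-452 table's differ by 0.07 to 0.9% in WAT.

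Ccl28 had the widest difference under either inhibitor in WAT, and Cx3cl1 was high in the same libraries. Ccl28, a ligand of Ccr10 made by mucosal epithelium, had 1005, 1428, 33.8 and 44.3 normalized reads in antimiR-224 libraries 1 to 4, 826, 1255, 1104 and 31.1 in antimiR-452 libraries, and 54.9, 56.4, 31.3 and 210 in scramblemiR libraries. Cx3cl1 (fractalkine, which is bound to the membranes of endothelium and epithelium and is the ligand of Cx3cr1) had 681, 755, 57.8 and 62.1 in antimiR-224 libraries, 561, 666, 575 and 72.2 in antimiR-452 libraries, and 60.2, 141, 66.7 and 215 in scramblemiR libraries. The same 5 inhibitor libraries were high for both ligands, and the other 3 inhibitor libraries lay within the scramblemiR range or below it. For Ccl28 the log2 difference was 1.67 ± 1.29 for antimiR-224 (95% interval −1.27 to 4.62, limma unadjusted p = 0.228, adjusted p = 0.841) and 2.67 ± 1.15 for antimiR-452 (0.07 to 5.28, unadjusted p = 0.0455, adjusted p = 0.996). For Cx3cl1 it was 0.98 ± 0.94 for antimiR-224 (−1.17 to 3.12, adjusted p = 0.864) and 1.73 ± 0.73 for antimiR-452 (0.07 to 3.40, unadjusted p = 0.0429, adjusted p = 0.996). The authors' deposited table gave an unadjusted p of 0.000991 for Ccl28 and 0.00461 for Cx3cl1 under antimiR-452, with adjusted p of 0.270 and 0.502.

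The 5 libraries high in these ligands were the 5 high in epithelial genes. The epithelial marker Cdh1 had 764, 1107, 20.7 and 7.76 normalized reads in antimiR-224 libraries, 750, 780, 690 and 6.66 in antimiR-452 libraries, and 20.4, 30.1, 6.25 and 117 in scramblemiR libraries. The 10 epithelial genes with recovered reads, of 12 listed, summed to 7430, 10064, 1491 and 868 in antimiR-224 libraries, 5176, 7443, 6236 and 788 in antimiR-452 libraries, and 513, 705, 821 and 1527 in scramblemiR libraries. Ciliated epithelium genes also ran high in those 5, from 3565 to 6310, and at 114, 2999, 60.5 and 589 in the scramblemiR libraries. Without antimiR-224 libraries 1 and 2, the difference of Ccl28 was −0.78 and that of Cx3cl1 −0.80, with adjusted p of 1.0 for each. With antimiR-224 libraries 3 and 4 and scramblemiR library 2 left out for their spermatid genes, which keeps antimiR-224 libraries 1 and 2 alone, 3 ligands passed: Ccl28 at 4.05 (adjusted p = 0.0378), Cx3cl1 at 2.90 (0.0364) and Cxcl16 at 0.96 (0.0249), among 1257 of 14635 genes. Without antimiR-452 library 4, Ccl28 at 3.93 (adjusted p = 0.013) and Cx3cl1 at 2.49 (0.0238) passed, among 542 of 15624 genes. Leaving out the epithelium-rich antimiR-452 libraries would leave 1 library of that group. In BAT the simple epithelium genes were near 0, and Epcam, Krt8, Dsp and Elf3 had no read in any antimiR-224 library there. Cx3cr1, the receptor of Cx3cl1 on monocytes and macrophages, had 95.0, 80.6, 51.3 and 26.6 normalized reads in antimiR-224 libraries, 150, 134, 67.6 and 12.2 in antimiR-452 libraries, and 31.9, 42.3, 16.7 and 127 in scramblemiR libraries. Its groups overlapped, with differences of 0.45 for antimiR-224 (limma adjusted p = 0.905) and 0.62 for antimiR-452 (adjusted p = 0.996). The ratio of Ccl28 to Cx3cl1 reads was 1.48, 1.89, 0.585 and 0.714 in antimiR-224 libraries, 1.47, 1.88, 1.92 and 0.431 in antimiR-452 libraries, and 0.912, 0.400, 0.469 and 0.979 in scramblemiR libraries.

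**Figure D2:**
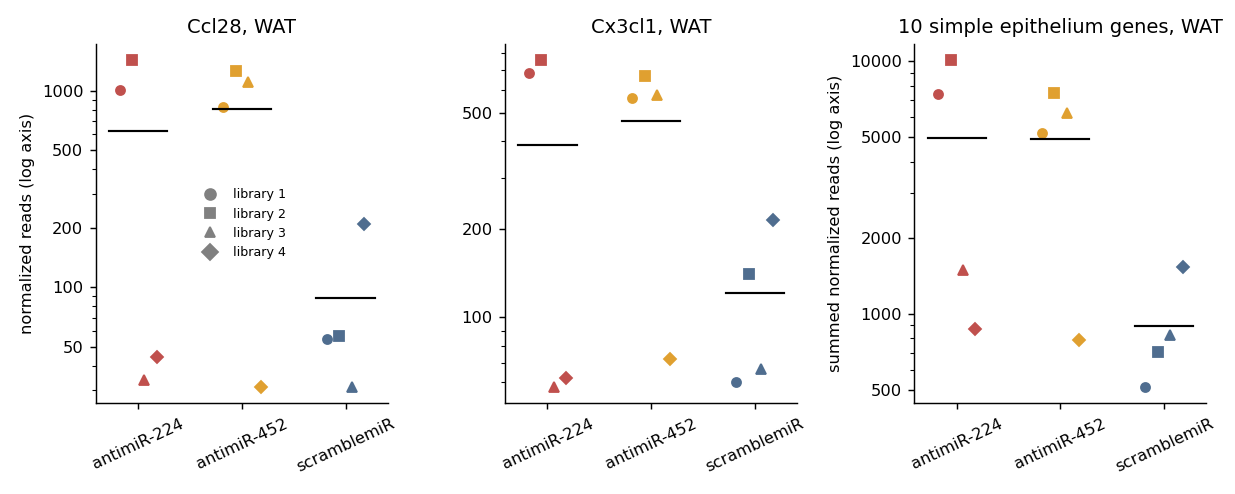
Normalized reads in WAT of Ccl28, Cx3cl1 and the sum of 10 simple epithelium genes on log axes, with a point per library, its symbol giving the library number, and a bar at the group mean. Libraries 1 and 2 of antimiR-224 and 1 to 3 of antimiR-452 are high in all panels, from 826 to 1428 for Ccl28, and the other inhibitor libraries lie near the scramblemiR points.

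The promoters of these 2 ligands are shown because they were high in the same libraries while lying on different chromosomes. Each is the 250 bases before the RefSeq start on GRCm38.p6, that of Ccl28 at chr13:119623569-119623818 and that of Cx3cl1 at chr8:94771930-94772179, both on the plus strand, the RefSeq start of Cx3cl1 lying inside the gene as GENCODE bounds it. Capitals mark a match to the loose NF-kB motif that begins 64 bases before the Ccl28 start, and none of the 3 motifs was in the Cx3cl1 window.
Ccl28: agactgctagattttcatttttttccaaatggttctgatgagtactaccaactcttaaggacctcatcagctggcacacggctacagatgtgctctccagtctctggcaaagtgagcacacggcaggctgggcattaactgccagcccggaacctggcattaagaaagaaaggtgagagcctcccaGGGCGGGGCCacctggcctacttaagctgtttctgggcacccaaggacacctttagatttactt
Cx3cl1: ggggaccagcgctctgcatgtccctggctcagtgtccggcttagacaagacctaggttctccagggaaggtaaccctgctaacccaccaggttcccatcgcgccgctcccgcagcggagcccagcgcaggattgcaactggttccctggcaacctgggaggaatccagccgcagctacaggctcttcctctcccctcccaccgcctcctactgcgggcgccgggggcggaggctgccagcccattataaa
The match in the 3′ UTR of Ccl28 to the miR-452-5p seed is printed above, and its part in these levels was not tested.

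Cxcl16 had the lowest limma p among ligands tested for both inhibitors in WAT. In the authors' deposited tables its unadjusted DESeq p was 0.179 for antimiR-224 and 0.153 for antimiR-452. The lowest there was that of Ccl28, at 0.0647 and 0.000991. It had 607, 677, 432 and 451 normalized reads in antimiR-224 libraries, 574, 648, 487 and 481 in antimiR-452 libraries, and 335, 443, 285 and 372 in scramblemiR libraries. The antimiR-452 libraries all lay above the scramblemiR libraries, while antimiR-224 library 3 lay just below scramblemiR library 2. Cxcl16 averaged 542 ± 119 under antimiR-224 and 358 ± 66.6 under scramblemiR, a log2 difference of 0.59 ± 0.19 (95% interval 0.15 to 1.03, limma unadjusted p = 0.0148, adjusted p = 0.828). It averaged 547 ± 79.6 under antimiR-452 and 361 ± 67.3 under scramblemiR, a difference of 0.61 ± 0.17 (0.22 to 1.0, unadjusted p = 0.00643, adjusted p = 0.996). Without the epithelium-rich antimiR-224 libraries the antimiR-224 difference was 0.32 (adjusted p = 1.0). Its receptor Cxcr6 was at −0.07 for antimiR-224 (adjusted p = 0.98) and −0.19 for antimiR-452 (adjusted p = 0.996). The exons of Cxcl16 overlap those of Zmynd15 on the other strand.

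Ccl17, a ligand of Ccr4 on regulatory and type 2 helper T cells, had 25.3, 9.72, 10.9 and 8.87 normalized reads in antimiR-224 libraries, 17.7, 22.8, 16.9 and 13.3 in antimiR-452 libraries, and 4.42, 6.58, 9.38 and 2.30 in scramblemiR libraries. The antimiR-452 libraries did not overlap the scramblemiR libraries, which held few reads. Its mean was below the minimum of 10 for the antimiR-224 test, and under antimiR-452 it averaged 17.7 ± 3.92, against 5.71 ± 3.05 under scramblemiR (1.58 ± 0.59, 95% interval 0.25 to 2.90, limma unadjusted p = 0.0245, adjusted p = 0.996). Ccl17 and Cxcl16 were the 2 ligands whose antimiR-452 libraries all lay above the scramblemiR libraries, beside 0.991% of all genes. The scramblemiR mean of Ccl17 was under the minimum of 10, so Ccl17 entered this test only through its antimiR-452 reads. Its separation and p carry that selection. Ccl22, the other ligand of Ccr4, which lies near Ccl17 and Cx3cl1 on chromosome 8, had 45.5, 23.8, 32.7 and 18.9 in antimiR-452 libraries and 13.3, 32.2, 21 and 33.6 in scramblemiR libraries of the same table, a difference of 0.27 ± 0.44.

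Cxcl13 differed more between libraries of a group than between groups. It had 247, 131, 470 and 243 normalized reads in antimiR-224 libraries, 43.8, 744, 45.4 and 59.9 in antimiR-452 libraries, and 63.7, 844, 208 and 18.4 in scramblemiR libraries. The antimiR-224 mean, 273 ± 142, stood beside 284 ± 382 under scramblemiR, while the log2 difference was 1.02 ± 1.03 (95% interval −1.32 to 3.37, limma adjusted p = 0.867) and the log2 ratio of means in the authors' deposited table −0.06. Under antimiR-452 the difference was −0.32 ± 1.26 (adjusted p = 0.996). The 7 B cell genes with recovered reads, of 8 listed, summed to 490, 331, 837 and 275 in antimiR-224 libraries, 185, 2289, 112 and 99.9 in antimiR-452 libraries, and 335, 2133, 181 and 78.1 in scramblemiR libraries. The library highest in Cxcl13 was the highest in B cell genes in each of the 3 WAT groups, but in none of the 3 BAT groups: Cxcl13 was highest in BAT antimiR-224 library 4, at 77.0, where B cell genes summed to 15.2, the lowest of that group, and in BAT antimiR-452 library 1, at 204, where they summed to 23.1, again the lowest. The part of B cells in the Cxcl13 level was not tested.

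**Figure D3:**
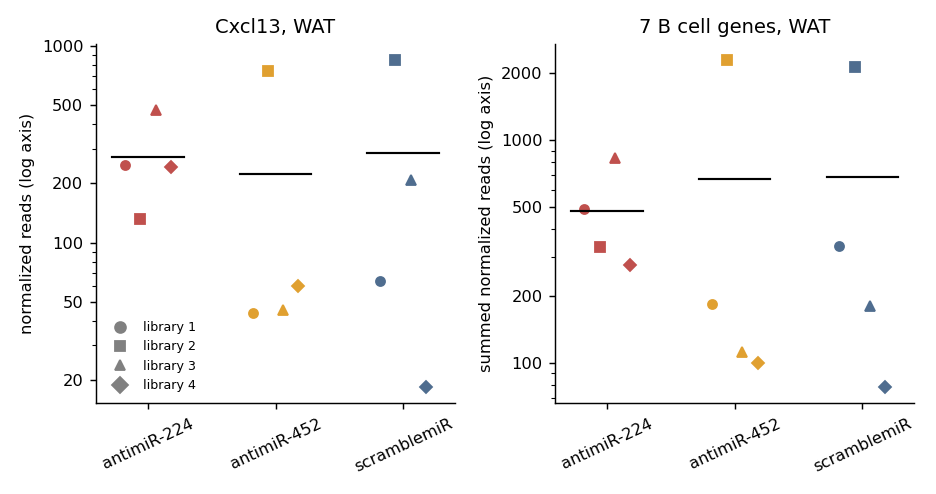
Normalized reads in WAT of Cxcl13 and the sum of 7 B cell genes on log axes, with a point per library, its symbol giving the library number, and a bar at the group mean. Library 2 of antimiR-452 and library 2 of scramblemiR are highest for both, with 744 and 844 reads of Cxcl13.

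The monocyte attractants were uneven under antimiR-224. Ccl8 had 479, 639, 43.6 and 1045 normalized reads in antimiR-224 libraries, 353, 159, 283 and 81.0 in antimiR-452 libraries, and 141, 481, 28.1 and 345 in scramblemiR libraries. Ccl7 had 64.5, 98.1, 18.5 and 143 in antimiR-224 libraries, 31.2, 48.5, 26.4 and 18.9 in antimiR-452 libraries, and 38.9, 57.3, 25.0 and 67.8 in scramblemiR libraries. Library 3 of antimiR-224 was the lowest of its group and library 4 the highest for both genes. The antimiR-224 differences were 1.1 ± 1.14 for Ccl8 (limma adjusted p = 0.871) and 0.53 ± 0.62 for Ccl7 (adjusted p = 0.884), and under antimiR-452 Ccl7 was at −0.57 ± 0.43 (adjusted p = 0.996). Cxcl10, the interferon-induced ligand of Cxcr3, had 54.9, 33.0, 57.8 and 102 in antimiR-224 libraries, 20.2, 80.8, 22.2 and 35.5 in antimiR-452 libraries, and 23.0, 36.6, 38.6 and 50.5 in scramblemiR libraries (antimiR-224 difference 0.66 ± 0.40, adjusted p = 0.84). Its highest library, antimiR-224 library 4, was also the one highest in interferon-inducible genes. Cxcl9, also induced by interferon, was at −0.26 ± 0.23 (adjusted p = 0.856), and it too was highest in that library, with 1352. Ccl2 had 68.0, 83.6, 34.9 and 112 in antimiR-224 libraries, 59.0, 58.9, 31.7 and 36.6 in antimiR-452 libraries, and 30.1, 90.2, 48.0 and 137 in scramblemiR libraries, and its groups overlapped. Cxcl2, a neutrophil attractant through Cxcr2, had 6.97, 18.5, 2.18 and 3.33 in antimiR-224 libraries, 13.5, 30.4, 8.45 and 8.88 in antimiR-452 libraries, and 14.2, 16.9, 4.17 and 10.3 in scramblemiR libraries, again with overlap. The exons of Cxcl10 overlap those of Art3 on the other strand, which had 7304 to 10178 normalized reads in the WAT scramblemiR libraries.

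Cxcl14 in WAT had 119, 144, 41.5 and 57.6 normalized reads in antimiR-224 libraries, 151, 208, 119 and 89.9 in antimiR-452 libraries, and 92.0, 83.6, 69.8 and 101 in scramblemiR libraries. Only antimiR-452 library 4 lay within the scramblemiR range in that group, and the difference was 0.64 ± 0.29 (limma unadjusted p = 0.0517, adjusted p = 0.996). Ccl11 had 618 to 1322 in antimiR-224 libraries, 783 to 1269 in antimiR-452 libraries and 763 to 1391 in scramblemiR libraries, which overlapped throughout. Ccl24 had 118, 188, 151 and 142 in antimiR-224 libraries and 92.0, 93.0, 142 and 87.3 in scramblemiR libraries, a difference of 0.54 ± 0.23 (unadjusted p = 0.0481, adjusted p = 0.828). Ccl6, Ccl9 and Cxcl12 were too abundant for their reads to be recovered in the WAT inhibitor libraries, so only the authors' deposited means are available and they carry no SD. In the authors' deposited table Ccl6 averaged 4847 under antimiR-224 and 2768 under scramblemiR, a log2 ratio of 0.81 with p = 0.207. The authors' deposited means of Ccl6 for antimiR-452 were 3144 against 2786, of Ccl9 2765 against 1781 for antimiR-224 and 1922 against 1792 for antimiR-452, and of Cxcl12 5480 against 5156 for antimiR-224 and 5685 against 5189 for antimiR-452.

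In BAT, 0 of 14 ligands tested passed for antimiR-224, as did 0% of 12098 genes, while 2 ligands and 699 genes (5.78%) had an unadjusted limma p under 0.05, both ligands and 3.33% of all genes upward. For antimiR-452, 0 of 15 ligands and 0% of 12954 genes passed, and 2 ligands and 547 genes (4.22%) had an unadjusted p under 0.05, both ligands and 2.08% of all genes upward. The authors' deposited tables called no gene for either inhibitor in BAT. The ligand medians were −0.04 for antimiR-224 and −0.10 for antimiR-452, beside −0.09 and −0.06 over all genes. The scramblemiR values below are again those of the antimiR-224 table.

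Ccl27a was the ligand with the largest difference upward for both inhibitors in BAT. It had 147, 142, 167 and 120 normalized reads in antimiR-224 libraries, 80.5, 178, 211 and 146 in antimiR-452 libraries, and 76.7, 98.7, 99.5 and 65.2 in scramblemiR libraries. The antimiR-224 libraries all lay above the scramblemiR libraries, and among antimiR-452 libraries only library 1 lay within their range. Ccl27a averaged 144 ± 19.1 under antimiR-224 and 85.0 ± 16.9 under scramblemiR, a log2 difference of 0.76 ± 0.22 (95% interval 0.27 to 1.26, limma unadjusted p = 0.00648, adjusted p = 0.736). It averaged 154 ± 55.5 under antimiR-452 and 85.6 ± 16.4 under scramblemiR, a difference of 0.77 ± 0.34 (0.02 to 1.53, unadjusted p = 0.0463, adjusted p = 0.999). Without the muscle-rich scramblemiR libraries 1 and 2 the difference was 0.82 for each inhibitor. Those fits left out scramblemiR libraries only, while the BAT inhibitor groups also held muscle reads, so muscle was not balanced between the groups. Il11ra1, whose exons overlap Ccl27a on the other strand, had 870, 507, 1113 and 552 in antimiR-224 libraries, 740, 919, 1361 and 601 in antimiR-452 libraries, and 666, 633, 581 and 610 in scramblemiR libraries. The receptor Ccr10 averaged 33.0 ± 10.2 under antimiR-224 and 28.1 ± 15.1 under scramblemiR (0.33, adjusted p = 0.82).

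Cxcl14 in BAT had 379, 309, 454 and 283 normalized reads in antimiR-224 libraries, 235, 299, 585 and 317 in antimiR-452 libraries, and 254, 225, 247 and 225 in scramblemiR libraries on the antimiR-452 table's scale. The scramblemiR libraries were close together, all antimiR-224 libraries lay above them, and antimiR-452 library 1 lay among them. The difference was 0.57 ± 0.19 for antimiR-224 (95% interval 0.15 to 0.99, limma unadjusted p = 0.0128, adjusted p = 0.736) and 0.51 ± 0.28 for antimiR-452 (−0.13 to 1.15, adjusted p = 0.999). Ccl27a and Cxcl14 were the 2 ligands whose antimiR-224 libraries all lay above scramblemiR, beside 2.26% of all genes. Cxcl14 was at −0.10 ± 0.40 under antimiR-224 and 0.64 ± 0.29 under antimiR-452 in WAT, and the difference in response between the fats did not pass for either inhibitor (−0.71 for antimiR-224, limma adjusted p = 0.666, and 0.10 for antimiR-452, adjusted p = 0.985).

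Ccl11 had 266, 311, 458 and 227 normalized reads in BAT antimiR-224 libraries, 463, 316, 356 and 354 in antimiR-452 libraries, and 235, 285, 264 and 239 in scramblemiR libraries. All antimiR-452 libraries lay above scramblemiR, as for 1.78% of all genes, with 372 ± 63.3 under antimiR-452 and 258 ± 22.5 under scramblemiR (0.52 ± 0.20, 95% interval 0.08 to 0.96, limma unadjusted p = 0.0262, adjusted p = 0.999). Cxcl9 had 235, 555, 296 and 232 in antimiR-224 libraries, 90.8, 403, 382 and 386 in antimiR-452 libraries, and 161, 238, 309 and 140 in scramblemiR libraries, with differences of 0.61 ± 0.34 for antimiR-224 (adjusted p = 0.736) and 0.41 ± 0.50 for antimiR-452 (adjusted p = 0.999). Library 1 of antimiR-452 was the lowest of its group for Cxcl9 and for Ccl27a.

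That same antimiR-452 library 1 was the highest for the macrophage-linked pair. Ccl6 had 475, 65.2, 87.3 and 233 normalized reads in BAT antimiR-224 libraries, 1041, 60.2, 101 and 149 in antimiR-452 libraries, and 359, 146, 243 and 157 in scramblemiR libraries. Ccl9 had 295, 40.9, 49.9 and 126 in antimiR-224 libraries, 634, 63.1, 78.2 and 108 in antimiR-452 libraries, and 222, 151, 164 and 140 in scramblemiR libraries. The 2 genes ranked the 4 antimiR-224 libraries alike. The Ccl9 difference was −0.82 ± 0.56 for antimiR-224 (limma adjusted p = 0.736) and −0.30 ± 0.65 for antimiR-452 (adjusted p = 0.999), where the log2 ratio of means in the authors' deposited table was 0.37. Without antimiR-452 library 2 the limma difference for antimiR-452 was 0.06. Macrophage genes with recovered reads, 14 of 15, summed to 3528, 1409, 1214 and 3035 in antimiR-224 libraries, 4722, 1339, 1917 and 1938 in antimiR-452 libraries, and 3515, 1916, 3708 and 2199 in scramblemiR libraries. Stromal genes with recovered reads, 4 of 9, summed to 5310 in antimiR-452 library 1 and to 951, 1076 and 1139 in libraries 2 to 4. The part of these cells in the ligand levels was not tested.

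The remaining BAT ligands named for size had low counts. Ccl28 had 2.40, 6.68, 3.40 and 16.3 normalized reads in antimiR-224 libraries, 18, 12.6, 5.02 and 16.5 in antimiR-452 libraries, and 10.2, 20.3, 9.53 and 13.0 in scramblemiR libraries, with an antimiR-224 difference of −1.04 ± 0.60 (limma adjusted p = 0.736). Its antimiR-224 mean, 7.2, was under the minimum of 10, so Ccl28 entered that test only through its scramblemiR reads, with a mean of 13.3. Ccl8 had 88.6, 17.5, 6.81 and 38.5 in antimiR-224 libraries, 81.4, 5.83, 13.0 and 5.17 in antimiR-452 libraries, and 32.4, 3.87, 36.0 and 10.9 in scramblemiR libraries. Its groups overlapped throughout, with an antimiR-224 difference of 0.71 ± 0.86. Cx3cl1 had 39.9, 54.3, 26.1 and 16.3 in antimiR-224 libraries, 37.7, 43.7, 52.2 and 50.7 in antimiR-452 libraries, and 43.4, 42.6, 90.0 and 33.7 in scramblemiR libraries. Ccl5, a T cell and monocyte attractant, had 29.5, 7.52, 15.9 and 15.2 in antimiR-224 libraries, 6.86, 11.7, 32.1 and 7.24 in antimiR-452 libraries, and 6.47, 50.3, 20.1 and 7.61 in scramblemiR libraries. Neither ligand separated the groups, and without scramblemiR library 2 the antimiR-452 difference of Ccl5 was 0.20 in place of −0.35. Cxcl12 had 1380, 2124, 2330 and 1475 in antimiR-452 libraries and 1434, 1786, 3588 and 1618 in scramblemiR libraries of the same table (−0.14 ± 0.32), and its authors' deposited means for antimiR-224 were 1668 against 2095 under scramblemiR. Ccl2, Ccl7 and Ccl22 were below the minimum mean for the BAT inhibitor tests. Ccl7 had 5.59, 0.835, 3.40 and 1.17 in antimiR-224 libraries, 21.4, 0, 0 and 0 in antimiR-452 libraries, and 6.47, 7.74, 6.35 and 8.70 in scramblemiR libraries, so that antimiR-452 library 1 alone held reads of it in its group. Ccl2 had 16.8, 4.18, 6.81 and 0 in antimiR-224 libraries, 16.3, 0.971, 0 and 0 in antimiR-452 libraries, and 10.2, 4.84, 6.35 and 10.9 in scramblemiR libraries. Ccl22 had at most 2.40 in antimiR-224 libraries, at most 1.03 in antimiR-452 libraries, and 7.39, 0, 11.6 and 2.17 in scramblemiR libraries. The authors' deposited table gave Ccl22 means of 0.258 under antimiR-452 and 5.32 under scramblemiR, with an unadjusted p of 0.0269 and an adjusted p of 1.0. These 3 low ligands enter the comparison of responses between tissues below.

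**Figure D4:**
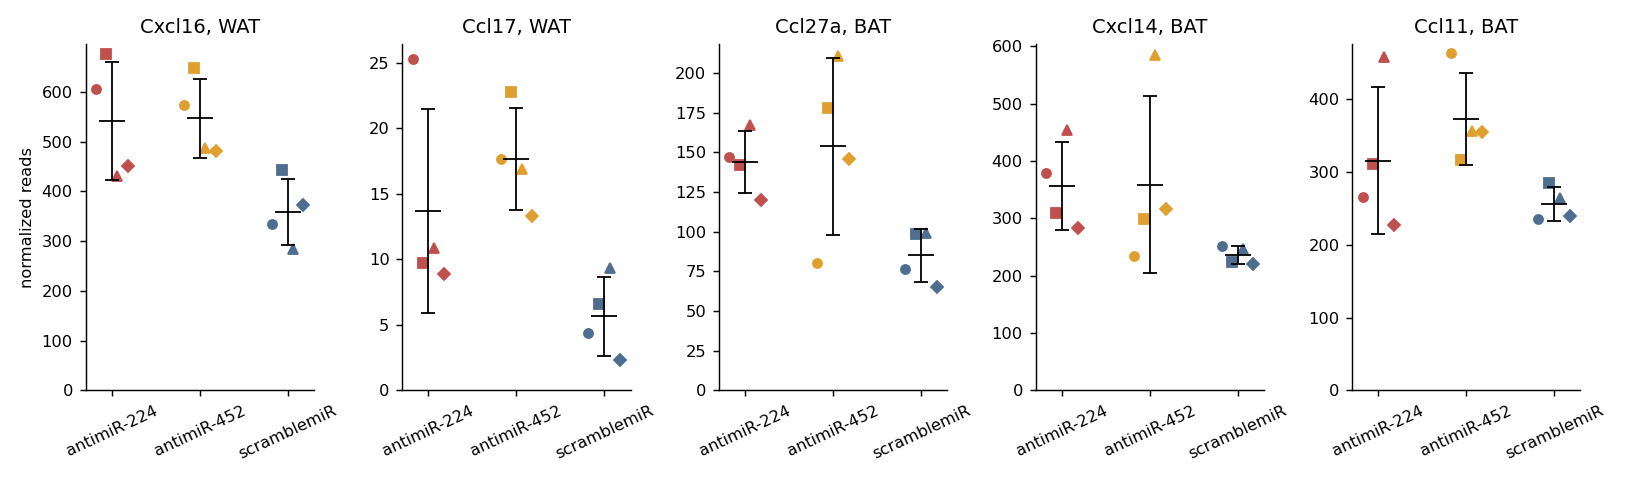
Normalized reads per library of Cxcl16 and Ccl17 in WAT and Ccl27a, Cxcl14 and Ccl11 in BAT, with a point per library and the mean ± SD of each group of 4. In each panel the inhibitor means lie above the scramblemiR mean, and for Cxcl16 the lowest antimiR-452 library, 481, is above the highest scramblemiR library, 446 on the antimiR-452 table's scale.

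**Figure D5:**
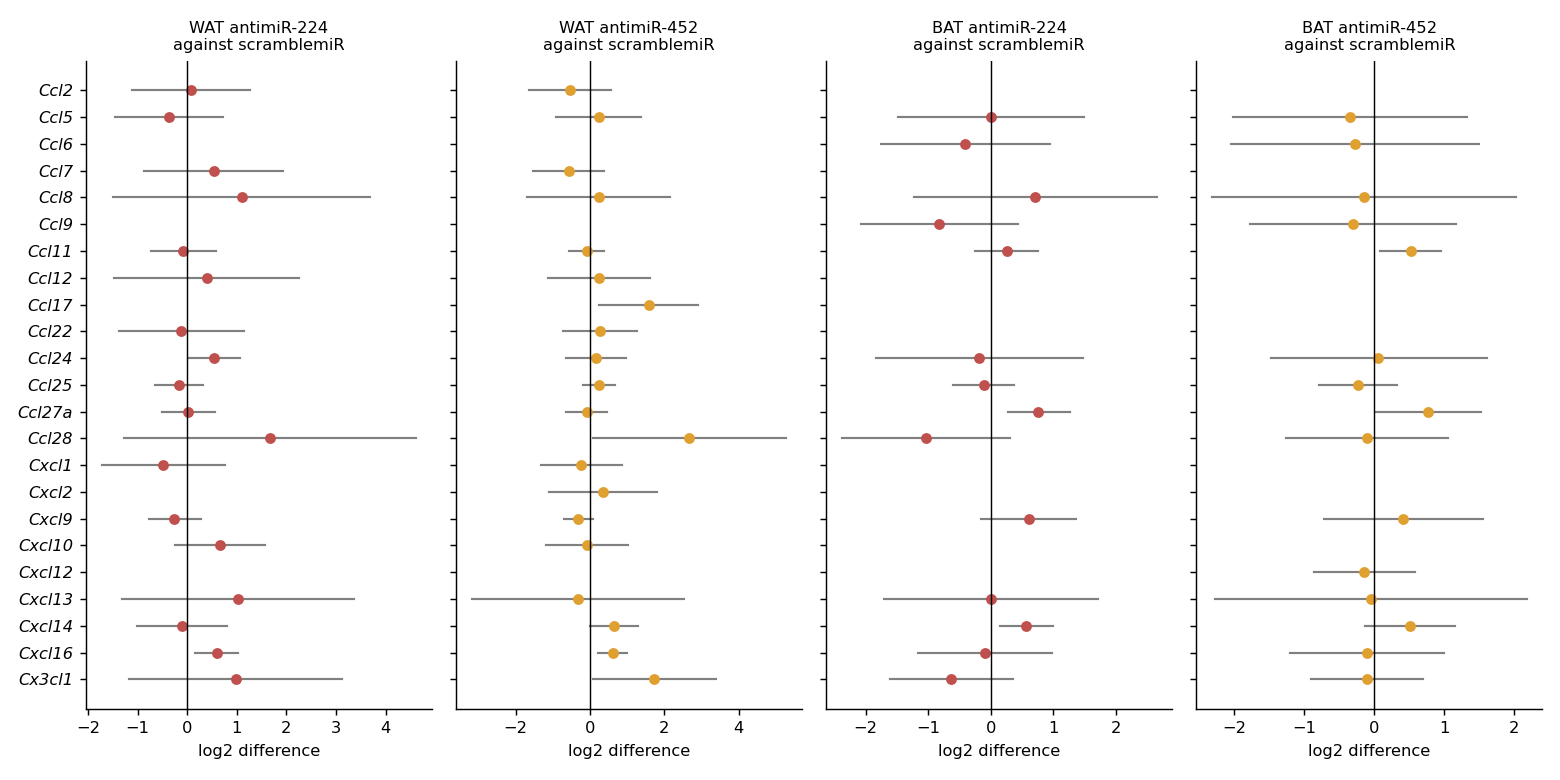
Log2 difference of each tested ligand from scramblemiR for the 4 inhibitor comparisons, with 95% limma intervals; comparisons within a tissue share their scramblemiR libraries. Most intervals span 0, the widest is that of Ccl28 in WAT under antimiR-224, −1.27 to 4.62, and none of the ligands passed an adjusted p of 0.05.

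The inhibitors were also compared with each other, antimiR-224 minus antimiR-452, in 1 fit per tissue. In WAT 0 of 20 ligands passed, as did 0% of 14925 genes, and no ligand but 289 genes (1.94%) had an unadjusted limma p under 0.05. In BAT 0 of 14 ligands and 0% of 12040 genes passed, with no ligand and 54 genes (0.449%) under an unadjusted 0.05. Among ligands that separated groups or ranked high in the scramblemiR comparisons, in WAT Cxcl16 differed by −0.02 (95% interval −0.40 to 0.36) and Ccl11 by 0.02 (−0.64 to 0.68), and in BAT Ccl27a by 0.01 (−0.76 to 0.77) and Cxcl14 by 0.08 (−0.64 to 0.80). Differences anywhere within these intervals remained possible with 4 libraries a group. The widest differences in WAT were Cxcl13 at 1.34 (−0.79 to 3.47), Ccl7 at 1.11 (−0.27 to 2.49; 80.9 ± 53.3 under antimiR-224 and 30.8 ± 12 under antimiR-452), Cxcl2 at −1.07 (−2.72 to 0.58), Ccl28 at −0.99 (−4.82 to 2.83), Ccl8 at 0.87 (−1.39 to 3.13) and Cxcl10 at 0.75 (−0.41 to 1.92). The difference of Ccl28 was 1.44 when the WAT libraries high in spermatid genes were left out. In BAT they were Ccl28 at −0.92 (−2.50 to 0.66), Ccl8 at 0.87 (−1.29 to 3.03), Cx3cl1 at −0.52 (−1.46 to 0.42), Ccl9 at −0.51 (−2.33 to 1.31), Ccl5 at 0.37 (−1.05 to 1.79) and Ccl11 at −0.25 (−0.85 to 0.35). BAT Ccl28 averaged 7.3 under antimiR-224 and 12.9 under antimiR-452. It reached the minimum mean of 10 only through its antimiR-452 reads. Without antimiR-452 library 1 the BAT difference of Ccl9 was 0.22.

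Whether the response differed between the fats was tested as WAT minus BAT. For antimiR-224, 0 of 17 ligands passed, as did 0% of 13232 genes, and 3 ligands and 986 genes (7.45%) had an unadjusted limma p under 0.05. The 3 were Ccl27a at −0.79 (95% interval −1.43 to −0.14, unadjusted p = 0.0198), Ccl7 at 1.92 (0.12 to 3.72, 0.0376) and Cxcl9 at −0.90 (−1.79 to −0.01, 0.0488), each with an adjusted p of 0.643. For antimiR-452, 0 of 17 ligands and 0% of 13667 genes passed, and 5 ligands and 746 genes (5.46%) had an unadjusted p under 0.05. These were Ccl11 at −0.65 (unadjusted p = 0.0448), Ccl27a at −0.90 (0.0465), Cx3cl1 at 1.80 (0.0474), Ccl22 at 2.34 (0.0487) and Ccl28 at 2.74 (0.0491), each with a limma adjusted p of 0.849. Ccl27a was therefore lower in the WAT response than in the BAT response at this unadjusted level for both inhibitors, which share the control libraries. Ccl7 and Ccl22 were under the minimum mean in BAT and entered these fits only through their WAT reads. Their values here rest on few BAT reads. In WAT alone Ccl7 was at 0.53 under antimiR-224 and Ccl22 at 0.27 under antimiR-452. With the WAT libraries high in spermatid genes left out, Ccl28 at 5.04 and Cx3cl1 at 3.45 passed for antimiR-224 (adjusted p = 0.0323 and 0.0433), among 223 of 12858 genes. Without WAT antimiR-452 library 4, Ccl28 at 3.98 passed for antimiR-452 (adjusted p = 0.0386), among 45 of 13683 genes. Without the epithelium-rich libraries the antimiR-224 difference was 0.29 for Ccl28, in place of 2.72, and −0.17 for Cx3cl1.

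The other genes of the pathway gave no call in any inhibitor comparison. Of 19 chemokine receptors, 12 were tested in WAT for each inhibitor, with medians of 0.14 and 0.14, and 6 in BAT for antimiR-224 and 5 for antimiR-452, with medians of −0.24 and −0.91. NF-kB-inducible genes had medians of 0.33 for antimiR-224 and 0.13 for antimiR-452 in WAT, and −0.20 and −0.05 in BAT. Interferon-inducible genes had a median of 0.57 in WAT under antimiR-224, with all 18 tested above 0, where antimiR-224 libraries 3 and 4 summed to 10759 and 31431 and libraries 1 and 2 to 5882 and 5859, below the scramblemiR range of 6197 to 8170. Their median was 0.49 in BAT under antimiR-452, with 21 of 22 above 0. Their medians were −0.08 in WAT under antimiR-452 and 0.06 in BAT under antimiR-224. The medians over all genes in these comparisons lay between −0.09 and 0.03.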

How the data were processed

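Poly(A) RNA of whole WAT and BAT was sequenced from 24 libraries, 4 for each treatment and tissue, prepared with a directional kit, per the labels' protocols. The authors' deposited tables hold, per the file headers, for each gene and comparison the mean normalized count of the scramblemiR libraries and of the inhibitor libraries (used as a signal), their ratio, the log2 ratio, a p-value and an adjusted p-value. The submitters' processing notes name DESeq 1.10.1, R 2.15.3 and GRCm38.p4; the aligner, the counter and whether counting used strand were not given in the sources used here.

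Because each mean is a sum of 4 whole read numbers divided by size factors, the reads of each library were recovered from the digits of the deposited means, for 100% of control genes and 89.87 to 92.91% of genes in inhibitor groups. The recovered reads gave back the means within a relative error of 5.3e-15. The most abundant genes of inhibitor groups were not recovered and were left untested. Recovered libraries cannot be tied to sample titles and are numbered by descending size factor. Replicates of a group differed beyond sampling noise, with a chi-square of at least 11.2 per degree of freedom. The design assumed counts; as the deposited values are normalized means, limma 3.58.1 (R 4.3.3, trend and robust) was fitted to log2(normalized count + 1) for genes with a mean of at least 10, with Benjamini-Hochberg adjustment over all genes tested at 0.05. Fold changes on this scale understate those of low genes. There were 9 comparisons: inhibitor against scramblemiR in each tissue, the inhibitors against each other, the control tissues, and the difference in response between tissues.

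Gene symbols came from GENCODE on GRCm38 and matched 99.42 to 99.48% of IDs. Gene bounds and 3′ UTRs are GENCODE's, and promoters and microRNAs RefSeq's on GRCm38.p6. Per-library values are given for the 8 ligands with the highest level per kilobase in the controls of each tissue and the 6 with the largest absolute difference in each comparison, and others by range or where a statement turned on them. The members and the gene lists were chosen with earlier results of these data known. Leaving out the muscle-rich BAT libraries was chosen after seeing the data. Which libraries were left out for epithelium, spermatid or muscle genes was in each case picked from marker sums in these data. Python 3.11.15, numpy 2.4.6, pandas 2.3.3 and matplotlib 3.10.9 were used, and the fits were tested on simulated data. The values of 1 listed receptor are not reported here.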

Additional observations from a re-analysis of the deposited data

Results flagged for a closer look

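Of 89 groups of 4 libraries with recovered reads, 7 held a library far from the other 3. For normally distributed values chance gives about 1 in 20 such groups. Groups of different ligands share libraries, so the 7 are not independent and their number was not tested against that rate. Ccl28 had 31.1 normalized reads in WAT antimiR-452 library 4, against 826 to 1255 in the others, and Cx3cl1 had 72.2 in the same library, against 561 to 666. Cxcl13 had 744 in WAT antimiR-452 library 2, against 43.8 to 59.9, and 204 in BAT antimiR-452 library 1, against 9.30 to 12.6. Cxcl9 had 90.8 in BAT antimiR-452 library 1, against 382 to 403. Ccl24 had 55.1 in WAT antimiR-452 library 2, against 135 to 160, and 142 in WAT scramblemiR library 3, against 87.3 to 93.0. The gap between the distant library and the nearest other, divided by the range of the group, was between 0.84 and 0.964 for these groups. Gap and range were taken on the log scale. The part of sample makeup in these values was not tested.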

How the results depend on the processing

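No paired analysis was possible because recovered libraries cannot be tied to label numbers. Outside the fits that left out each library in turn, 490 of the members' values kept their direction and side of the threshold. In that set 7 lost a call, 5 gained one and 6 changed sign. That set includes the fits without spermatid-rich, epithelium-rich or muscle-rich libraries. All 5 gains came from leaving out spermatid-rich libraries. Among fits that left out each library in turn, the numbers kept, lost, gained and changed in sign were 553, 7, 4 and 3. The number of ligands called for WAT antimiR-224 became 3, and for the difference in response to antimiR-224 2, when the libraries high in spermatid genes were left out. For the control tissues it was 7 of 12 tested with a minimum mean of 50 (5987 of 13000 genes), 7 of 17 with the spread shared by 24 libraries (4456 of 13022) and 15 of 26 with no minimum (7377 of 23924). Leaving out each library in turn gave 0 to 2 ligands for WAT antimiR-452, 0 to 1 for the difference in response to antimiR-452 and 10 to 12 for the control tissues. The values that changed sign were Ccl28 at −0.78 and Cx3cl1 at −0.80 for WAT antimiR-224 and Cx3cl1 at −0.17 for the difference in response to antimiR-224, without epithelium-rich libraries; Ccl28 at 1.44 for the inhibitors in WAT, without spermatid-rich ones; and, in the authors' deposited tables, Cxcl13 at −0.06 for WAT antimiR-224 and Ccl9 at 0.37 for BAT antimiR-452. Leaving out a library moved Ccl5 in BAT antimiR-452 over −0.81 to 0.20, Ccl9 there over −1.04 to 0.06, and Ccl9 for the inhibitors in BAT over −1.06 to 0.22. The cause was not tested. Upper-quartile scaling moved the share of higher genes among those under an unadjusted 0.05 to 43.3% from 54.2% for WAT antimiR-224, to 81.9% from 57.7% for BAT antimiR-224, to 62.6% from 49.4% for BAT antimiR-452 and to 23.1% from 43.4% for the difference in response to antimiR-224, whose all-gene median it moved to −0.01 from 0.10. Ligands with a mean under 10 normalized reads were left out of the main tests, and their values rest on few reads.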

Other observations

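Among the receptors, Ccr3, which binds the eotaxins Ccl11 and Ccl24, had 6.97 to 26.2 normalized reads in WAT antimiR-224 libraries and 0 to 5.21 in scramblemiR libraries, so that the groups did not overlap. Ccr3 averaged 18.5 ± 8.16 under antimiR-224 and 1.77 ± 2.46 under scramblemiR, a log2 difference of 3.11 ± 0.96 (limma unadjusted p = 0.0107, adjusted p = 0.828, higher in 4 of 4 libraries). Groups did not overlap upward for 1.74% of all genes in this comparison. Ccr3 was singled out after its values were seen and did not pass the correction. Its scramblemiR mean was under the minimum mean for testing, so Ccr3 entered this test only through its antimiR-224 reads. Its separation and p carry that selection. Its ligand Ccl24 was at 0.54 and its ligand Ccl11 at −0.08 in the same comparison.

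In WAT, mast cell genes summed to 1455, 1753, 789 and 807 normalized reads in antimiR-224 libraries, 1578, 639, 1306 and 535 in antimiR-452 libraries, and 649 to 865 in scramblemiR libraries. Skeletal muscle genes summed to 13389 in WAT antimiR-452 library 3 and to 399 to 681 in libraries 1, 2 and 4. In BAT the ratio of Ccl27a to Cxcl14 reads was 0.367 to 0.459 in antimiR-224 libraries, 0.343 to 0.594 in antimiR-452 libraries and 0.296 to 0.440 in scramblemiR libraries.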
